A study of Mus musculus with 16 samples.

Results

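Autophagy delivers cytoplasm and organelles to the lysosome, and its mitochondrial form, mitophagy, strips mitochondria from red cell precursors as they mature. The genes described here are 10 members of that machinery, chosen by symbol and not by a threshold on their values: the initiating kinase Ulk1, the conjugation and processing enzymes Atg5, Atg7 and Atg4d, the ATG8-family proteins Map1lc3a, Map1lc3b, Gabarapl1 and Gabarapl2, the cargo receptor Sqstm1 and the mitophagy receptor Bnip3l. All 10 were among the 15386 genes of the RNA-seq table and among the 13490 genes of the m6A table, and all 10 passed the filter on low counts in both.

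The RNA-seq compared 3 libraries of control CFU-E, late erythroid progenitors, with 3 libraries labelled CFU-E Kit-low Mettl3 KO, called CFU-E Kit-lo below. Controls were EpoR-tdTomato-Cre mice and the deficient animals were Mettl3 fl/fl EpoR Cre/- mice, in which the gene of the m6A writer Mettl3 is removed in cells that have expressed the erythropoietin receptor. All were on a C57BL/6 background, male and female, and 10 to 16 weeks old. The Cre also recombines in erythroblastic island macrophages and only partly in hematopoietic stem cells. Bone marrow CFU-E were sorted as live, lineage-negative cells that carried Kit and CD71 and lacked CD16/32, Sca1, CD34 and CD41, and the deficient libraries came from the low-Kit fraction of that gate, for which no control fraction was sequenced, so genotype and gate cannot be told apart. The m6A experiment used control CFU-E alone, with 2 libraries of RNA captured by an m6A antibody (IP) and 2 input libraries. The remaining 6 libraries of the series, from proerythroblasts, were not analysed here.

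RNA-seq libraries held 17429262 to 21329242 estimated counts and m6A libraries 19421059 to 37142742. Kit was 598 ± 47.1 CPM (counts scaled to TMM library sizes, SD, n = 3) in control CFU-E and 55.2 ± 12.4 CPM in CFU-E Kit-lo, the marker that defined the sort. Mettl3 was 123 ± 7.43 CPM in control CFU-E against 117 ± 9.52 CPM in CFU-E Kit-lo (log2 fold change -0.07, edgeR adjusted p = 0.634), and these counts do not separate the deleted exons from the rest of the transcript. The deposited RNA counts therefore did not show the loss of Mettl3, and every direction below is between libraries as labelled. By other assays, the paper reports that erythroid cells of these mice lacked Mettl3 mRNA and protein and had less global m6A. Erythroid genes were abundant in every library, with Gata1 between 573 and 692 CPM in the RNA-seq. The summed level of 11 late erythroid markers was 1393 to 1520 CPM in control CFU-E and 4471 to 6347 CPM in CFU-E Kit-lo, with 8 of the 11 called higher. The sum of 7 early progenitor markers, Kit included, was 1912 to 2045 CPM in controls and 973 to 1141 CPM in Kit-lo libraries. Kit defined the sort, so its share of that fall was fixed in advance. Of the 6 tested, Kit, Gata2 and Myb were called lower and none was called higher. Cd44 did not pass (300 ± 27 against 318 ± 33 CPM). The libraries thus differed in maturation markers as well as in label, and the part of that difference in the autophagy values was not tested. No source says that replicates came from separate animals, so p-values measure the spread between these libraries, which may be technical. In these bulk samples, fewer cells of a type and less RNA per cell cannot be told apart.

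Autophagy starts when the ULK1 kinase complex and the class III PI3-kinase complex prime a membrane. ATG7, an E1-like enzyme, activates both ATG12 and the ATG8 proteins, ATG12 is joined to ATG5, and that conjugate helps ATG3 attach ATG8 proteins to lipid. ATG4 proteases first trim ATG8 precursors and later free them from membrane, while receptors such as SQSTM1 and BNIP3L (NIX) carry an ATG8-binding motif and bring in cargo. BNIP3L is known for the clearance of mitochondria from reticulocytes.

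Among the members, the clearest changes between CFU-E Kit-lo and control CFU-E were in the enzymes that act on ATG8 proteins. Atg4d rose 1.70-fold, Atg5 fell to 0.662 of its control level, and both differences exceeded the spread between libraries. A differentially expressed gene (DEG) was called at a fold change of at least 1.5 and an adjusted p under 0.05. By that rule 1 of the 10 members was higher and 1 was lower, where 12.1% of all 11979 tested genes were higher and 9.83% were lower, so the members were called about as often as genes in general. The adjusted p alone was passed by 2 higher members (Atg4d and Bnip3l) and 2 lower members (Atg5 and Gabarapl1), against 17.6% and 16.9% of all tested genes. The CPM ranges of the groups did not overlap for 6 of the 10 members, against 47.5% of tested genes. The median log2 fold change was 0.19 over the members and 0.01 over all tested genes.

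**Figure D1:**
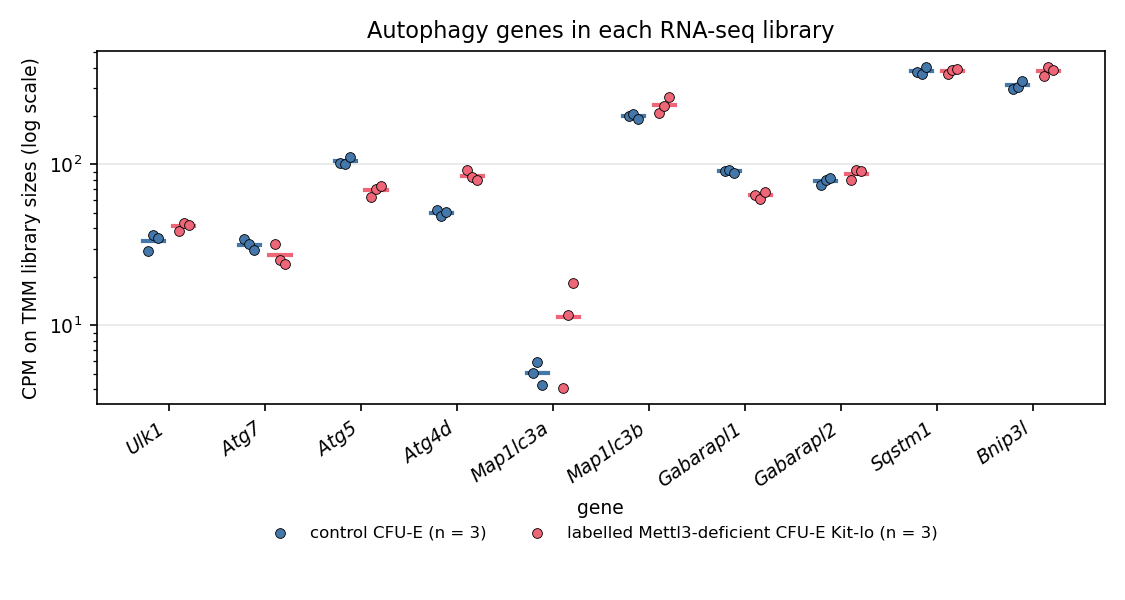
CPM of each of the 10 genes (y axis, log scale) in 3 control libraries (blue) and 3 CFU-E Kit-lo libraries (red). Points are libraries and bars are group means. Atg4d, Atg5, Gabarapl1, Bnip3l, Ulk1 and Map1lc3b are separated between groups. Of the Kit-lo points of Map1lc3a, 1, at 4.05 CPM, lies just below the controls.

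The stretches before the start sites of the called enzymes are shown because both genes changed in a sort where erythroid maturation markers also differed. Promoter sequences (RefSeq, GRCm38.p6) were matched for 8 of the 10 members, all but Bnip3l and Map1lc3a. Each was searched on both strands, over the 250 bases before the start, for 3 motifs. The motif of GATA factors was searched as AGATAA or as AGATAG. It was also searched as TGATAA or as TGATAG. The CACCC box, as bound by KLF1, was searched as CCACACCC. The E-box, the core that TFEB and MYC proteins recognise, was searched as CACGTG. Atg4d lies on the plus strand of chromosome 9, and its stretch spans chr9:21265035-21265284. Atg5 lies on the plus strand of chromosome 10, and its stretch spans chr10:44268089-44268338. Capitals mark the matched letters.
Atg4d: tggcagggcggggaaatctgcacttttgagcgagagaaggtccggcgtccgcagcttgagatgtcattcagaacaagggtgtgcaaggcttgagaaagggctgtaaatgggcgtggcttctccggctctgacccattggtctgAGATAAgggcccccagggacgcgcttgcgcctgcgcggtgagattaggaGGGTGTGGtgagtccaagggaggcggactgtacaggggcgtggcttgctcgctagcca
Atg5: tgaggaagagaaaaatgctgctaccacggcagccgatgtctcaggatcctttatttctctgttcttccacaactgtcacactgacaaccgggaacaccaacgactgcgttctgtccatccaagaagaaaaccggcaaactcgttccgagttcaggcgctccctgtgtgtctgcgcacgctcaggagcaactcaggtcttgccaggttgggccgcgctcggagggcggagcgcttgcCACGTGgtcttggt
In Atg4d a GATA match began 107 bases before the start and a CACCC match, on the opposite strand, began 58 bases before it. No other matched member held either. GATA letters occurred in 26.5% of all 32851 promoters in the table and the CACCC box in 3.20%. An E-box began 14 bases before the start of Atg5 and 132 bases before the start given for Atg7, and 6.02% of all promoters held 1. That start of Atg7 lies inside the gene as GENCODE annotates it, downstream of its first exon. These matches are letters only and say nothing of binding.

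Atg4d (ENSMUSG00000002820, chr9:21265293-21277772, plus strand) encodes a cysteine protease that trims and delipidates ATG8 proteins. Its levels were 52.0, 47.5 and 51.0 CPM in control CFU-E against 92.0, 83.6 and 79.9 CPM in CFU-E Kit-lo. Every Kit-lo library stood above every control library, with a log2 fold change of 0.76 (SE 0.10, adjusted p = 0.00035). Its exons overlap those of Kri1 on the opposite strand over 1405 bases, and 20.4% of the 31-base words of its principal transcript also occur in Kri1. Kri1 itself was 29.1 ± 2.02 CPM and 27.5 ± 6.70 CPM in the same groups (SD, n = 3).

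Atg5 (ENSMUSG00000038160, chr10:44268358-44364291, plus strand) encodes the partner of ATG12 in the conjugate that directs lipidation. It was at 101.4, 101.1 and 111.0 CPM in control CFU-E and at 63.1, 70.7 and 73.7 CPM in CFU-E Kit-lo. The groups were well apart, with a log2 fold change of -0.60 (SE 0.10, adjusted p = 0.00128). That value is just past the fold threshold, which is 0.585 on the log2 scale. Atg5 passed the adjusted p in all 13 alternative fits but the fold threshold in only 10. It missed that threshold with library-size scaling (-0.54), without control replicate 3 (-0.56) and without Kit-lo replicate 1 (-0.54).

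Atg7 (ENSMUSG00000030314, chr6:114643097-114860614, plus strand), the E1-like activating enzyme, was at 34.2, 31.9 and 29.2 CPM in control CFU-E. Its Kit-lo values were 31.9, 25.6 and 23.9 CPM, so the groups overlapped. The log2 fold change was -0.23 with a 95% interval from -0.56 to 0.11 (adjusted p = 0.28), whose lower end nearly reaches the value of Atg5. The log2 ratio of Atg4d to Atg5, which does not depend on library scaling, was between -1.12 and -0.97 in the control libraries and between 0.11 and 0.54 in the Kit-lo libraries. It was chosen after the values were seen, as the ratio of a gene that rose to a gene that fell, and carries no test.

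Ulk1 (ENSMUSG00000029512, chr5:110784488-110810097, minus strand), the kinase that starts autophagosome formation, was at 28.8, 36.4 and 34.8 CPM in control CFU-E and at 38.4, 43.2 and 42.3 CPM in CFU-E Kit-lo. The groups did not overlap, yet the difference of 0.31 on the log2 scale (SE 0.13, 95% interval 0.02 to 0.61) did not pass the adjusted p (0.0959).

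The ATG8 family did not move as 1 group. Gabarapl1 (ENSMUSG00000030161, chr6:129533160-129542346, plus strand), of the GABARAP branch, was at 91.0, 92.7 and 88.2 CPM in control CFU-E. In CFU-E Kit-lo it was at 64.9, 61.3 and 67.1 CPM, below every control library. The log2 fold change of -0.49 (SE 0.09, adjusted p = 0.00232) passed the adjusted p and missed the fold threshold. Its exons overlap 1700101I11Rik on the opposite strand over 570 bases, and 19.5% of its 31-base words are shared with that gene.

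Gabarapl2 (ENSMUSG00000031950, chr8:111940703-111953612, plus strand), also of the GABARAP branch, was at 74.9, 80.0 and 82.2 CPM in control CFU-E and at 79.9, 92.6 and 90.5 CPM in CFU-E Kit-lo. The groups overlapped, with a log2 fold change of 0.15 (95% interval -0.07 to 0.37, adjusted p = 0.279). Several processed copies of it exist, of which Gm3724 is 1, and 21.3% of its 31-base words occur in other genes. The log2 ratio of Gabarapl1 to Gabarapl2 ran from 0.10 to 0.28 in control CFU-E and from -0.60 to -0.30 in CFU-E Kit-lo, so the groups did not overlap. On counts not corrected for length, Gabarapl1 was above Gabarapl2 in each control library and below it in each Kit-lo library, while per kilobase their control ranges overlapped. This ratio too was chosen after the values were seen and carries no test.

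Map1lc3b (ENSMUSG00000031812, chr8:121590361-121598760, plus strand) encodes LC3B, the protein most often followed as a mark of autophagosomes. Its levels were 201.1, 205.3 and 191.2 CPM in control CFU-E against 209.1, 232.2 and 264.0 CPM in CFU-E Kit-lo. All Kit-lo values were higher, and the log2 fold change of 0.24 (SE 0.10, adjusted p = 0.0813) did not pass. Of the 31-base words of Map1lc3b, 17.3% occur in other genes, Gm6055 among them. Its exons overlap Zcchc14 on the opposite strand over 58 bases. Map1lc3a (ENSMUSG00000027602, chr2:155276297-155278073, plus strand), its LC3A relative, was scarce at 5.03, 5.95 and 4.24 CPM in control CFU-E. Its Kit-lo values were 4.05, 11.6 and 18.3 CPM. Kit-lo replicate 1 lay below all controls and the other Kit-lo libraries lay above them, so the log2 fold change of 1.16 (SE 0.45, adjusted p = 0.0714) rests on unequal libraries. Without Kit-lo replicate 1 it was 1.56 (adjusted p = 0.00165), without Kit-lo replicate 3 it was 0.63 (adjusted p = 0.255), and over all 13 alternative fits the adjusted p ran from 0.00165 to 0.255. Kit-lo replicate 1 also had the lowest late erythroid sum of the Kit-lo libraries, 4471 CPM, and a link to its Map1lc3a level was not tested.

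Sqstm1 (ENSMUSG00000015837, chr11:50199366-50210827, minus strand) encodes p62, which binds ubiquitinated cargo and ATG8 proteins. Its levels were 377, 364 and 403 CPM in control CFU-E against 366, 386 and 390 CPM in CFU-E Kit-lo. The groups overlapped fully, with a log2 fold change of 0.00 (-0.0028) and a 95% interval from -0.17 to 0.16, narrow enough to hold no 1.5-fold difference. Bnip3l (ENSMUSG00000022051, chr14:66985239-67008877, minus strand), the receptor of mitochondrial clearance, was at 295.3, 302.0 and 332.2 CPM in control CFU-E and at 355.0, 404.4 and 385.4 CPM in CFU-E Kit-lo. Every Kit-lo library was above every control library, by 1.23-fold (log2 fold change 0.30, SE 0.08, adjusted p = 0.0176), short of the fold threshold. The adjusted p was 0.0871 without control replicate 1 and 0.0651 without control replicate 2, and it ran from 0.00512 to 0.0871 over 13 alternative fits. The transcript shares 28.5% of its 31-base words with its processed copy Bnip3l-ps.

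**Figure D2:**
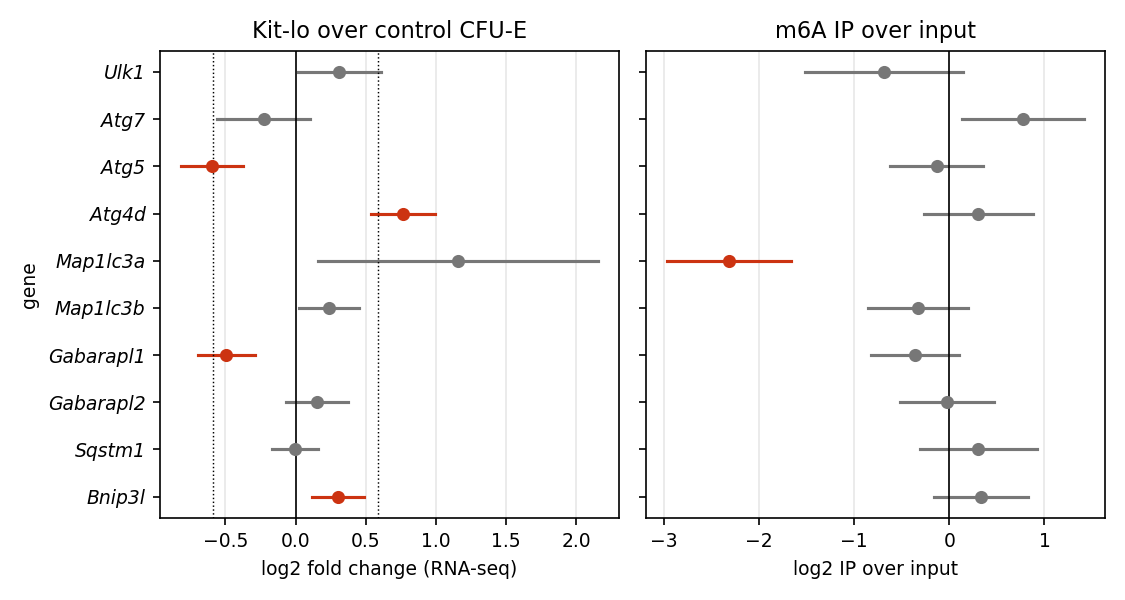
Log2 fold change of the 10 genes with its 95% interval (bars), for CFU-E Kit-lo over control CFU-E (left, 3 against 3 libraries) and for m6A IP over input (right, 2 against 2). Red marks an adjusted p under 0.05 and dotted lines the 1.5-fold threshold. Atg4d and Bnip3l lie to the right and Atg5 and Gabarapl1 to the left in the RNA-seq, and Map1lc3a at -2.31 stands alone in the m6A panel.

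Levels of different genes were compared per kilobase of the principal GENCODE transcript. In control CFU-E, Sqstm1 was highest at 187 ± 9.95 CPM per kb, followed by Bnip3l at 95.7 ± 6.07 and Map1lc3b at 78.7 ± 2.86 CPM per kb (SD, n = 3). Gabarapl1, Gabarapl2 and Atg5 formed the next level at 49.8 ± 1.24, 47.1 ± 2.23 and 44.4 ± 2.40 CPM per kb, and neighbours among them overlapped. Atg7 (8.45 ± 0.67), Atg4d (8.43 ± 0.39), Ulk1 (6.39 ± 0.77) and Map1lc3a (4.56 ± 0.77 CPM per kb) were lowest, with Atg7 and Atg4d overlapping. In CFU-E Kit-lo the first 3 kept their places. Atg4d reached 14.3 ± 1.05 CPM per kb, apart from Atg7 at 7.22 ± 1.13, and Gabarapl1 at 35.4 ± 1.61 lay below Gabarapl2 at 52.3 ± 4.08 CPM per kb.

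The wider machinery was read from a list of 103 genes in 10 role groups, members included, of which 102 were tested. Of these, 18 rose and 7 fell as DEGs, or 17.6% higher and 6.86% lower, beside 12.1% and 9.83% of all tested genes. The list was written with earlier results of these data known, so these shares carry no test. The median log2 fold change of the list was 0.14. The genes that rose were mostly upstream regulators and lysosomal genes. The counts by role, here and below, stand beside the same 12.1% and 9.83%, and 1 gene of 10 is close to both shares. Among 11 conjugation and processing enzymes, 1 rose (Atg4d) and 3 fell, or 9.09% and 27.3%.

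Those 3 were Atg5 with Atg12 and Atg3, which act in the same conjugation steps. Atg12, the ubiquitin-like partner of ATG5, was at 118, 107 and 108 CPM in control CFU-E and at 67.2, 67.5 and 66.4 CPM in CFU-E Kit-lo (log2 fold change -0.73, SE 0.09, adjusted p = 0.000207). Atg3, the E2-like enzyme for ATG8 proteins, went from 23.2 ± 2.30 to 14.1 ± 2.12 CPM (log2 fold change -0.72, adjusted p = 0.00873). The ratio of Atg5 to Atg12 overlapped between groups. The other ATG4 proteases lay on the side of Atg4d without reaching the fold threshold: Atg4b had a log2 fold change of 0.38 (adjusted p = 0.00605), Atg4a of 0.45 (adjusted p = 0.0383) and Atg4c of 0.38 (adjusted p = 0.0901).

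Close relatives of the other members did not pass. Ulk2 had a log2 fold change of 0.00 (SE 0.27), Gabarap of 0.11 (SE 0.11) and Bnip3 of -0.16 (SE 0.24), the last with Kit-lo values spread from 24.0 to 53.0 CPM. Within the initiation complex, 1 of 5 genes rose: Atg101, a subunit that stabilises ATG13, went from 22.5 ± 4.61 to 46.9 ± 4.30 CPM (log2 fold change 1.06, adjusted p = 0.000814). Of 10 membrane supply genes and PI3P effectors 2 rose, among them Zfyve1, whose product marks the sites where autophagosomes form (log2 fold change 0.99, adjusted p = 0.000169). Ambra1 was the 1 gene called of 7 in the PI3-kinase complex.

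Cargo receptors went both ways, with 1 DEG up and 1 down among 10. Optn, a ubiquitin-binding receptor used in mitophagy, was at 160, 171 and 179 CPM in control CFU-E and at 56.9, 64.7 and 56.9 CPM in CFU-E Kit-lo (log2 fold change -1.51, SE 0.10, adjusted p = 4.29e-06). Ncoa4, the receptor that carries ferritin to the lysosome, went from 108 ± 10.5 to 214 ± 14.2 CPM (log2 fold change 0.98, adjusted p = 5.28e-05). Sqstm1 lay between them. Among 12 genes of mitophagy receptors and the PINK1-parkin axis 1 rose, Mul1, a mitochondrial ubiquitin ligase (log2 fold change 0.99, adjusted p = 0.00163).

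Of 10 genes for fusion with the lysosome, 1 rose (Plekhm1, a Rab7 effector, log2 fold change 0.72, adjusted p = 0.0145) and 1 fell (Tecpr1). Of 16 lysosomal genes, 5 rose and 1 fell, or 31.25% and 6.25%, beside 12.1% and 9.83% of all tested genes. Cathepsin D (Ctsd) was at 79.8, 77.2 and 81.9 CPM in control CFU-E and at 204, 183 and 217 CPM in CFU-E Kit-lo (log2 fold change 1.34, SE 0.09, adjusted p = 6.54e-06). Cathepsin B (Ctsb) rose by 1.07 and cathepsin L (Ctsl) by 0.76 on the log2 scale. Hexa, the alpha subunit of beta-hexosaminidase, fell from 54.6 ± 10.6 to 20.9 ± 2.28 CPM. Lysosomal genes are also abundant in macrophages, whose 9 measured markers summed to 22.6 to 27.5 CPM in control CFU-E and 12.6 to 16.01 CPM in CFU-E Kit-lo, and their part in the lysosomal values was not tested. Of the 6 tested, C1qa and Cd163 fell and none rose. Cd68 (4.27 ± 1.25 against 4.66 ± 1.16 CPM) and Csf1r (0.717 ± 0.425 against 0.896 ± 0.738 CPM) did not pass, and Adgre1 was at or below 0.115 CPM in every library. The 10 granulocyte markers summed to 25.8 to 39.2 and 16.2 to 24.8 CPM. Of the 4 tested, Mpo fell (19.6 ± 3.60 against 5.01 ± 4.78 CPM) and Ngp rose (0.178 ± 0.172 against 1.82 ± 0.548 CPM). Elane (3.7 ± 1.1 against 1.0 ± 1.3 CPM) and Prtn3 (6.7 ± 1.4 against 8.5 ± 1.3 CPM) did not pass. Below the filter, Ctsg was lower on average in CFU-E Kit-lo (0.746 against 0.293 CPM). S100a8, Ltf and Camp, also below it, were higher there, at 0.643 to 0.849 CPM. S100a9 (0.172 against 0.234 CPM) and Csf3r (0.114 against 0.119 CPM) were the others below the filter.

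Of 16 upstream regulators tested, 5 rose and 1 fell, or 31.25% and 6.25%, beside 12.1% and 9.83% of all tested genes. Foxo3, a transcription factor known to act in erythroid maturation and on autophagy genes, was at 10.7, 13.0 and 8.02 CPM in control CFU-E and at 17.7, 30.6 and 35.3 CPM in CFU-E Kit-lo (log2 fold change 1.40, SE 0.27, adjusted p = 0.00281). Stk11, the kinase LKB1 that activates AMPK, had a log2 fold change of 1.04 (adjusted p = 0.000188). Deptor, an inhibitor of mTOR, fell from 38.0 ± 3.92 to 11.6 ± 1.30 CPM (log2 fold change -1.71, adjusted p = 2.91e-05).

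**Figure D3:**
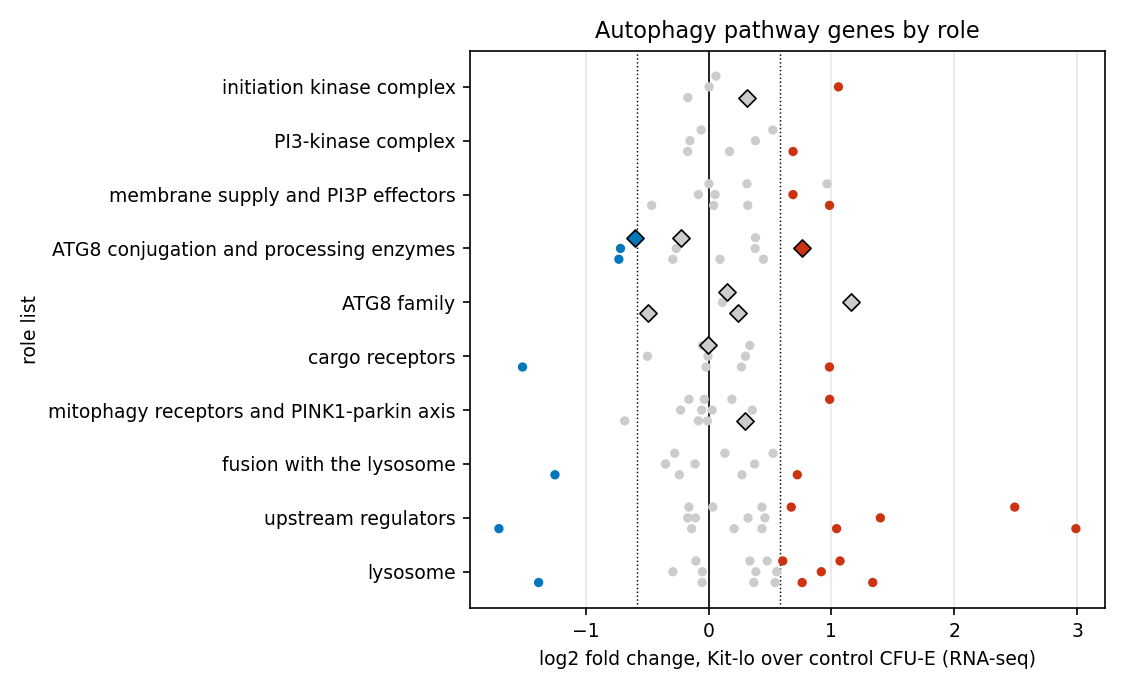
Log2 fold change (x axis) of the 102 tested genes of the list, 1 point per gene, in rows by role. Diamonds are the 10 members, red points are DEGs that rose and blue points DEGs that fell, and dotted lines mark 1.5-fold. Red points are most frequent in the upstream regulators and the lysosome, with 5 each, and 3 of the 7 blue points are conjugation enzymes.

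m6A is written by METTL3 with METTL14, most often at the adenosine of short motifs of which GGACT is a common form. The principal GENCODE transcript of 8 of the 10 members held GGACT, and 87.0% of 21875 coding genes did. Map1lc3a and Bnip3l held none. Gabarapl1 had 5, or 2.75 per kb, beside a median of 1.01 per kb over coding genes, and all 5 lay in its 3′ UTR. The sites nearest the stop codon, where m6A is known to gather, are shown for Gabarapl1, for Atg7, which had the highest IP over input of the members, and for Atg4d. Capitals mark GGACT in 25 bases of GRCm38.
Gabarapl1 (3′ UTR, chr6:129541186-129541210, plus strand): gggagcacctGGACTtgggggtagg
Atg7 (3′ UTR, chr6:114859055-114859079, plus strand): cctcagcgcaGGACTggaccgcagg
Atg4d (coding sequence, chr9:21273408-21273432, plus strand): ccagctccgaGGACTttgtgttttt
The motif began 29 bases past the stop codon in Gabarapl1 and 42 bases past it in Atg7, and 18 bases before the end of the stop codon in Atg4d.

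In control CFU-E, none of the 10 members was enriched by the m6A antibody at an adjusted p under 0.05, and 1, Map1lc3a, was lower in IP than in input. Over 11447 tested genes 7.90% were enriched and 7.86% were lower, so 0 and 1 of 10 members are close to these shares. At an unadjusted p under 0.05, Atg7 was higher and Map1lc3a lower, and DESeq2 likewise called only Map1lc3a. Groups did not overlap for 6 of the 10 members, where 60.9% of all tested genes had no overlap with 2 libraries on each side. IP over input is a relative measure, so a value below 0 means less capture than the average transcript and not an absence of m6A.

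Map1lc3a was at 17.7 and 14.2 CPM in input and at 3.19 and 3.22 CPM in IP. Both IP libraries lay far below both inputs, and the log2 IP over input was -2.31 (SE 0.29, adjusted p = 0.000529). It stayed between -2.47 and -2.16 and past the threshold in all 11 alternative fits. Its transcript is among the 2 without GGACT. Bnip3l, the other, was at 222 and 283 CPM in input and at 306 and 331 CPM in IP, with a log2 IP over input of 0.33 (95% interval -0.16 to 0.82, adjusted p = 0.326).

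Atg7 was at 13.4 and 11.5 CPM in input and at 25.9 and 16.7 CPM in IP. Both IP values were higher, and the log2 IP over input of 0.77 (SE 0.29, 95% interval 0.13 to 1.41) did not pass (adjusted p = 0.0946). It passed with upper-quartile scaling (adjusted p = 0.0386), with the replicate number as a block (adjusted p = 0.0183) and without IP replicate 2 (adjusted p = 0.0256), within a range of 0.0183 to 0.455 over 11 alternative fits. The other conjugation enzymes were close to input: Atg4d had a log2 IP over input of 0.31 (-0.27 to 0.88) and Atg5 of -0.13 (-0.62 to 0.36). Ulk1 was scarce in these 3′-end libraries, at 3.70 and 3.15 CPM in input and 2.28 and 1.96 CPM in IP, and its log2 IP over input was -0.69 (-1.51 to 0.14).

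The remaining ATG8 genes were at or below input. Gabarapl1 was at 177 and 186 CPM in input and at 135 and 149 CPM in IP, with a log2 IP over input of -0.36 (-0.82 to 0.10). It had the most GGACT per kb of the members. Map1lc3b, at 701.5 and 844.4 CPM in input and 538.5 and 696.1 CPM in IP, had -0.32 (-0.85 to 0.20). Gabarapl2 had -0.02 (-0.52 to 0.47). All 5 ATG8 genes, Gabarap included, had a negative value, as had 5358 of all 11447 tested genes. Only the value of Map1lc3a passed the test. That of Gabarapl2 turned positive with library-size scaling (0.13) and with upper-quartile scaling (0.11). Sqstm1 was at 50.8 and 42.2 CPM in input and at 72.1 and 42.9 CPM in IP, with overlapping groups and a log2 IP over input of 0.31 (-0.31 to 0.92).

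**Figure D4:**
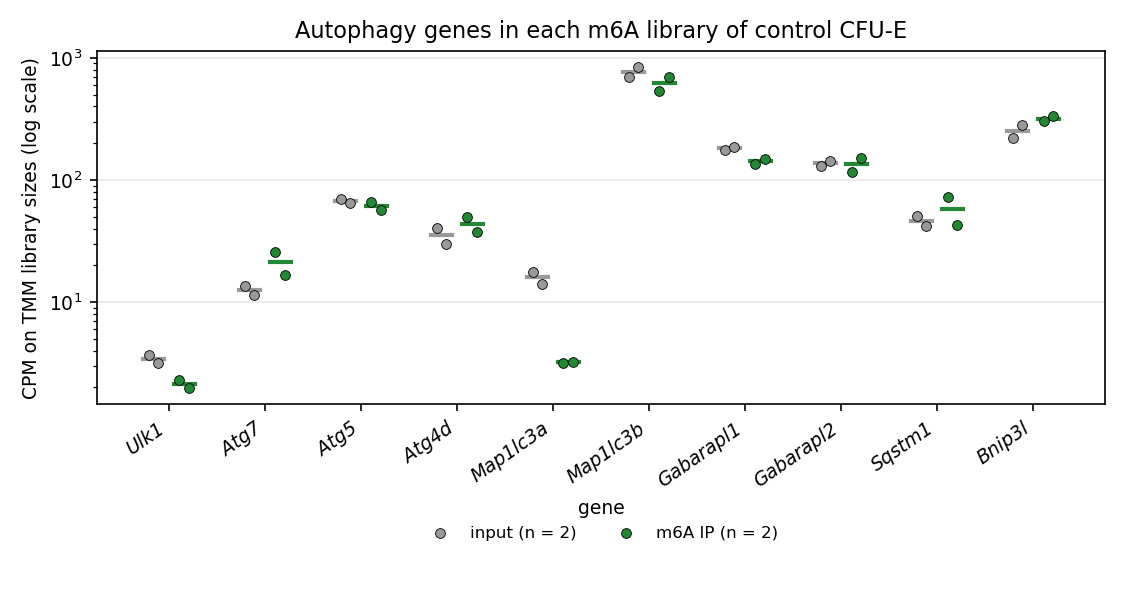
CPM of the 10 genes (y axis, log scale) in the 2 input libraries (grey) and the 2 m6A IP libraries (green) of control CFU-E, with points for libraries and bars for means. Map1lc3a falls from 15.9 to 3.20 CPM on average, while the means of the other genes differ by at most 1.71-fold.

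In the wider list, 6 of 101 tested genes were enriched and 12 were lower, or 5.94% and 11.9%. Over all tested genes these shares were 7.90% and 7.86%, so enrichment was no more frequent in the list. Atg4c had the highest value, 2.27 (SE 0.60, adjusted p = 0.029), at 0.617 and 0.281 CPM in input and 2.997 and 1.41 CPM in IP. Atp6v1b2, a subunit of the lysosomal proton pump, had 1.40 (adjusted p = 0.0116) and Foxo3 1.28 (adjusted p = 0.00864), with Foxo3 at 27.7 and 42.4 CPM in input and at 85.1 and 84.5 CPM in IP. The mitophagy receptors Bcl2l13 (1.05, adjusted p = 0.0424) and Fundc1 (0.85, adjusted p = 0.0348) and the lipid kinase Pik3c3 (0.98, adjusted p = 0.0483) completed the enriched genes. Pink1, the kinase that marks damaged mitochondria for parkin, was lowest at -3.27 (SE 0.42, adjusted p = 0.000585), at 85.5 and 49.5 CPM in input and at 9.73 and 4.02 CPM in IP. Tfeb, the transcription factor of lysosomal genes, had -2.50, Lamp1, a lysosomal membrane protein, -2.16 and Stk11 -1.98.

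These counts moved with scaling, with the replicate block and with single libraries. With the replicate number as a block, 16 genes of the list were enriched and 20 were lower. Upper-quartile scaling gave 12 enriched and 10 lower genes in the list, and over all tested genes 1451 and 754 in place of 904 and 900, while library-size scaling gave 934 and 608. The list count of 18 was 7 without input replicate 1, 10 without input replicate 2 and 10 without IP replicate 1.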

How the data were processed

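Smart-seq2 with oligo-dT priming gave the RNA-seq libraries, and antibody capture with oligo-dT primed 3′-end tagging gave the m6A libraries. Per the labels, reads were trimmed with fastp 0.23.4 and quantified with kallisto 0.48.0. The notes name both mm10 and GRCm39, without their roles. Use of strand and of molecular identifiers in counting is not given in the sources used here. The authors deposited estimated counts per gene, as whole numbers, which were fitted without further rounding. Kallisto divides reads shared between similar transcripts, which bears on genes with processed copies or antisense partners. Word sharing was computed with 31-base words over GENCODE vM21 transcripts (GRCm38), taking the longest APPRIS principal transcript of each gene.

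Tests used edgeR 4.0.16 under R 4.3.3 (filterByExpr, TMM, glmQLFit and glmQLFTest) over all genes of each experiment, with Benjamini-Hochberg adjustment. CPM values use TMM-scaled library sizes, and intervals are 95% intervals from the same fit. DEGs required a fold of at least 1.5 and an adjusted p under 0.05, and m6A calls an adjusted p under 0.05. Alternatives were DESeq2 1.42.0, other scalings and filters, a replicate block and leaving out each library. The script was tested on simulated data with changes of at least 1.5-fold planted in 200 genes whose average log2 CPM was above 3. Scarcer genes were given no change, so recovery at their levels was not tested. A planted gene counted as recovered at an adjusted p under 0.05 in the right direction, without the fold rule. The script recovered 156 of the 200 in the RNA-seq design and 105 in the m6A design, with 16 and 9 false calls. The 10 genes and the lists were chosen with earlier results of these data known. Named genes of the wider list were the 15 DEGs of largest change whose average log2 CPM reached 3 and whose groups did not overlap, 6 fixed relatives, and up to 8 highest and 5 lowest called genes in the m6A data. Ambra1, Tecpr1, Rragd, the genes called in both experiments and marker genes were named after their values were seen. The remaining marker sums were 2.92 to 3.38 and 2.54 to 3.08 CPM (lymphocyte), 11.8 to 13.4 and 7.93 to 19.3 CPM (megakaryocyte), 1.37 to 5.10 and 0 to 2.92 CPM (mast cell and basophil) and 2540 to 2665 and 4262 to 5027 CPM (erythroid) in control CFU-E and CFU-E Kit-lo. Genes of the lists with no row in a table were not analysed here.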

Additional observations from a re-analysis of the deposited data

How the results depend on the processing

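With 3 and 2 libraries a group, single-member calls were limited by the spread between libraries. Replicate numbers were not stated to mark animals, and same-numbered RNA-seq libraries did not deviate together (r = 0.03, -0.02 and -0.07). With 2 libraries a group, deviations from the group mean mirror each other. The 2 m6A pairs therefore hold 1 value (r = 0.21), from which pairing cannot be judged. With the replicate block, the RNA-seq gave 2 DEGs among the members, 25 in the wider list and 2495 in all, and the m6A data gave 2, 36 and 3538 calls in place of 1, 18 and 1804, with Atg7 as the added member. DEGs at any fold numbered 4 members, 42 listed genes and 4128 genes in all, in place of 2, 25 and 2631. Library-size scaling left 1 member DEG and upper-quartile scaling gave 2 m6A members. In the m6A data library-size scaling moved the median of all genes from 0.06 to 0.21. DESeq2 gave 3 member DEGs, with Map1lc3a added. Leaving out 1 library at a time gave 1 to 2 member DEGs (1 without control replicate 3), 21 to 25 in the list and 2180 to 2726 in all, and 1 to 2 m6A members (2 without IP replicate 2), 7 to 25 in the list and 591 to 2326 in all (591 without input replicate 1 and 1173 without IP replicate 1). Values near 0 changed sign: Sqstm1 in the RNA-seq to 0.050 with library-size scaling, to 0.0065 with the stricter filter and between -0.043 and 0.032 without single libraries. In the m6A data Gabarapl2 went to 0.13 with library-size and 0.11 with upper-quartile scaling and ranged from -0.23 to 0.14 without single libraries, Atg5 went to 0.031 with library-size scaling, and Sqstm1 ranged from -0.14 to 0.63 without single libraries. Map1lc3b passed the adjusted p in the RNA-seq with library-size scaling (0.0338) and without Kit-lo replicate 1 (0.0288), within a range of 0.0288 to 0.251 over 13 alternatives. The cause of these shifts was not tested.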

Other observations

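Of the 101 genes of the wider list tested in both experiments, 17 rose in CFU-E Kit-lo and 12 were lower in IP than in input in control CFU-E, and 7 were in both groups: Atg101, Mul1, Stk11, Tfeb, Keap1, Lamp1 and Ctsl. They were 41.2% of the genes that rose and 58.3% of those lower in IP. Over all 10773 genes tested in both, 144 genes were in both groups, 10.8% of those that rose and 17.3% of those lower in IP. Beside these, Foxo3 was higher in both comparisons (log2 values 1.40 and 1.28), and Atg3 was lower in both (-0.72 and -1.02, adjusted p = 0.00873 and 0.0125 in edgeR). In the RNA-seq, Lamp1 ran from 61.6 to 90.7 CPM in control CFU-E and from 81.8 to 222.9 CPM in CFU-E Kit-lo, so its groups overlapped. Tfeb was scarce in control CFU-E, at 0.987 ± 0.145 CPM (SD, n = 3). The genes shared by both comparisons were noticed after the values were seen, and their number carries no test.

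Levels of the same members differed between the RNA-seq and the m6A input libraries of control CFU-E, which were made by different protocols and normalized separately, so no test was made. Sqstm1 averaged 381 CPM in the RNA-seq and 46.5 CPM in input, and Ulk1 33.3 and 3.43 CPM. Map1lc3b averaged 199 CPM in the RNA-seq and 773 CPM in input, and Map1lc3a 5.07 and 15.9 CPM. Bnip3l was at 309.8 and 252.8 CPM.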
